A study of Mus musculus with 21 samples.

Results

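The neutrophil granule and calprotectin genes were followed in the colon of germ-free (GF) mice, 10 of the 23771 genes named on the day 7 arrays and of the 26765 named on the day 0 arrays. They were chosen by name, as the genes of calprotectin (S100a8 and S100a9), lipocalin-2 (Lcn2), the receptor of granulocyte colony-stimulating factor (Csf3r) and 6 proteins stored in neutrophil granules (Mpo, Elane, Ngp, Camp, Ltf and Mmp8). All probes annotated to a member were taken (12 among 55681 for day 7, 12 among 56605 for day 0), and each gene was represented by the probe with the highest mean signal. RNA of whole colon tissue from male C57BL/6J mice without a microbiota was hybridized to 21 single-color Agilent arrays, 1 array per sample. At day 7, when 2% dextran sulfate sodium (DSS), a detergent-like polymer that injures the colon lining, had been in the drinking water for 7 days, there are 4 arrays with the label GF Card9-/- and 4 with GF WT. Before any DSS (day 0) the numbers are 7 and 6. All mice of both labels are therefore germ-free and, at day 7, DSS-treated, and colonized mice were not analysed here. The ages of these mice and the construction of the Card9 deletion are not given in the sources used here, and p-values below measure only the spread between these samples. The labels do not say whether GF Card9-/- day 7 replicates 2 and 2.1 come from 1 mouse, and they were taken as separate samples. The SD of their log2 difference over probes was 0.85, against a median of 0.91 for the other day 7 pairs, which does not decide it.

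Neutrophils are short-lived white blood cells that enter injured tissue from the blood and carry their weapons ready made. Primary (azurophil) granule proteins such as myeloperoxidase and neutrophil elastase, and secondary (specific) granule proteins such as lactoferrin and the cathelicidin precursor, are transcribed mostly in the bone marrow while the cell matures, and the messages are largely lost by the time the cell leaves it. Calprotectin, a pair of calcium-binding S100 proteins that withholds zinc and manganese from microbes, fills the neutrophil cytosol and is the protein measured in stool as a marker of intestinal inflammation. CARD9 is an adaptor protein that carries signals from receptors for fungal and bacterial cell walls in myeloid cells.

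S100a8 and S100a9 lie next to each other in a cluster of S100 genes on chromosome 3, and they are the pair that forms calprotectin, so the 250 bases before their annotated starts are shown (RefSeq, GRCm38.p6, 5′ to 3′ along the gene). Capitals mark the motifs searched on both strands, TATAAA (the TATA box), GGAAGT (the core bound by Ets factors, printed as ACTTCC where it lies on the other strand) and TTGCNNAA (a form of the site bound by C/EBP factors, which drive granulocyte genes).
S100a8, chr3:90668821-90669070, plus strand: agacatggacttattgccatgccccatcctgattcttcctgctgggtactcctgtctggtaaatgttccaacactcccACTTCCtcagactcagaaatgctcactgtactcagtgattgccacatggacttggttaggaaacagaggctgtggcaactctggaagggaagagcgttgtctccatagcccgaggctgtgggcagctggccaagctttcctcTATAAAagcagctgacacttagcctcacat
S100a9, chr3:90695722-90695971, minus strand: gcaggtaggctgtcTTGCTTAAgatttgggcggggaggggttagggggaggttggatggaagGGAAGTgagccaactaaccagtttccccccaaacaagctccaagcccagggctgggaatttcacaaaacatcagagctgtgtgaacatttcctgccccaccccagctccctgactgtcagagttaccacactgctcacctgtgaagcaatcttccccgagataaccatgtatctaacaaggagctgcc
The S100a8 stretch holds a TATAAA that begins 30 bases before the start and a GGAAGT 172 bases before it. The S100a9 stretch holds a GGAAGT 188 bases and a TTGCNNAA 236 bases before the start and no TATAAA. Among the 10 members, 1 holds TATAAA, 5 hold GGAAGT and 5 hold TTGCNNAA in this window, against 12.4%, 19.7% and 9.56% of 32851 mouse promoters of the same length. No overlap between the marked motifs occurs in these stretches. These are matches of letters only, and no binding was measured.

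The gene whose loss defines the groups was read first. On the array scale used throughout (log2 of the processed signal, quantile normalized over the arrays of a day), Card9 averaged 8.90 ± 0.20 (SD, n = 7) on the day 0 arrays labelled GF Card9-/- and 2.32 ± 0.01 (n = 6) on those labelled GF WT, where it was not well above background, a ratio of at least 21.5-fold higher under the GF Card9-/- label (limma, adjusted p = 2.92e-13). At day 7 all 4 arrays labelled GF Card9-/- lay between 7.93 and 8.57, and 3 of the 4 labelled GF WT lay between 2.38 and 2.41, while replicate 1 of that label stood at 7.85. The day 7 difference, read with another Card9 probe than at day 0, was 4.37 and was not called either (limma adjusted p = 0.913). The labels and the Card9 signal thus point in opposite directions. The cause was not tested, and groups are called by their labels throughout, with each difference taken as arrays labelled GF Card9-/- minus arrays labelled GF WT. Days are not compared in level, because day, array design and scan session cannot be told apart. The share of spots well above background per array was 42.2% to 57.1% at day 7 and 54.5% to 64.9% at day 0, and no spot was saturated. At day 7 it was 48.5% to 57.1% (median 51.8%) under the GF Card9-/- label and 42.2% to 55.9% (median 47.8%) under the GF WT label.

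How much of the neutrophil program the colon RNA showed at all was asked before any comparison. At both days 4 members (Lcn2, Csf3r, Elane and Camp) were well above background on every array. Whether the signal of these 4 probes comes from neutrophils was not tested. Ltf, the iron-binding lactoferrin, and Ngp, neutrophilic granule protein, were well above background on none of the 21 arrays. Mpo, the peroxidase of primary granules, was well above background on 0 of 8 arrays at day 7 and, with another probe, on 1 of 13 at day 0. Mmp8, the neutrophil collagenase, was well above background on 0 of 8 arrays at day 7 and, with another probe, on 3 of 13 at day 0. The calprotectin genes lay in between. S100a8 was well above background on 1 of 8 arrays at day 7 and 1 of 13 at day 0, and S100a9 on 5 of 8 and 5 of 13. Thus 6 of the 10 genes were at or near background on many arrays, and 2 members at each day did not pass the detection filter and were not tested (Ltf and Mmp8 at day 7, Ngp and Ltf at day 0).

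**Figure D1:**
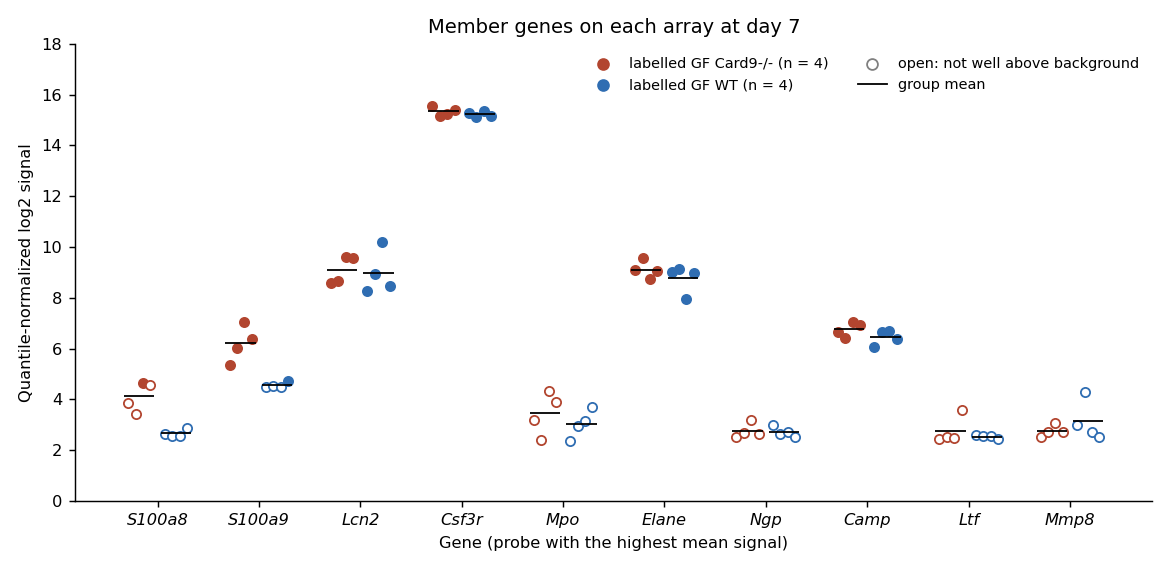
Quantile-normalized log2 signal (vertical axis) of the 10 member genes on each day 7 array, with arrays labelled GF Card9-/- in red and GF WT in blue (n = 4 each), bars at the group means and open circles where the probe was not well above background. For S100a8 and S100a9 every red point lies above every blue point, and the S100a8 points are open on all but 1 array. The other members overlap between the labels.

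At day 7 the 2 calprotectin genes had a higher normalized log2 signal in every array labelled GF Card9-/- than in any array labelled GF WT, and no other member separated the labels. S100a8 (probe A_51_P256827, chr3:90473778-90473837 of NCBI37, plus strand) read 3.86, 3.41, 4.65 and 4.54 on replicates 2, 2.1, 4 and 6 of the GF Card9-/- label. On the arrays of replicates 1, 4, 5 and 6 labelled GF WT it read 2.62, 2.56, 2.57 and 2.87. On this normalized scale the labels do not overlap, but in linear processed signal before normalization they do, at 9.77 to 23.0 units against 5.55 to 11.9 units. Only replicate 4 of the first group was well above background, and on every array labelled GF WT the value lay under that array's dimmest probe well above background. The mean difference was 1.46 ± 0.28 (SE) on the log2 scale with a 95% interval from 0.79 to 2.12, and no fold is given because the second group has no level above background. The adjusted p of 0.913 (limma, Benjamini-Hochberg) did not pass, and 26 of the 44643 probes tested ranked as high by their unadjusted test. When dim values were raised to that dimmest level on each array, the difference shrank to 0.14.

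S100a9 (probe A_55_P1998471, chr3:90496573-90496632, minus strand), the partner chain of S100a8, was better measured. It read 5.36, 6.04, 7.03 and 6.37 on replicates 2, 2.1, 4 and 6 of the GF Card9-/- label, all well above background. It read 4.47, 4.53, 4.49 and 4.71 on the arrays of replicates 1, 4, 5 and 6 labelled GF WT, of which only replicate 6 was well above background. In linear processed signal this was 43.8 to 119 units against 20.9 to 27.7 units. The labels do not overlap on either scale, and the arrays labelled GF WT lay closer together (SD 0.11) than those labelled GF Card9-/- (SD 0.69). The difference was 1.65 ± 0.33 on the log2 scale (95% interval 0.89 to 2.41, limma adjusted p = 0.913), with the second group well above background on 1 of 4 arrays, and 30 probes ranked as high by their unadjusted test. Raising dim values to the floor left it at 1.49. The difference was 0.71 with normexp background correction and 0.83 in the authors' own log2 table, where S100a8 stood at 0.29 and 0.32, respectively. The first of these settings adds an offset of 50 units and the second has no background subtracted.

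Both calprotectin genes kept the sign of the difference on the 2 slides that hold both labels. S100a8 differed by 0.99 and 0.85 and S100a9 by 0.65 and 1.51 within slides, with 1 array of each label per slide, and with the slide as a fixed block the differences were 0.92 and 1.08. The array labelled GF WT replicate 1, which carries Card9 signal, had an S100a8 value of 2.62, among the other arrays of its label. Its S100a9 value of 4.47 was the lowest of its label, with the next at 4.49. Without this array the differences were 1.45 and 1.62. When the arrays labelled GF Card9-/- replicates 2.1 and 6, whose pancreas gene signal was high, were left out as well, they were 1.59 and 1.62.

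**Figure D2:**
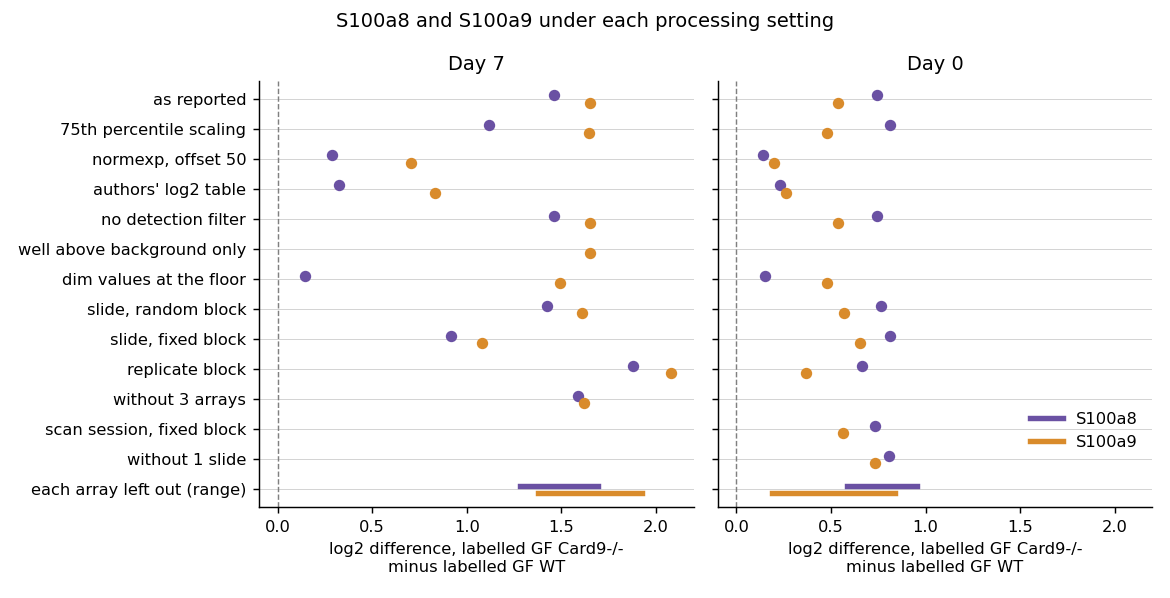
Log2 difference (horizontal axis, arrays labelled GF Card9-/- minus GF WT) of S100a8 (purple) and S100a9 (orange) at day 7 and day 0, as reported and under each other processing setting (rows), with bars for the range when each array is left out in turn. All values lie above 0, and rows without a point were not run or did not hold the gene. At day 7 S100a8 drops from 1.46 to 0.14 when dim values are raised to the floor, and both genes drop under normexp and in the authors' table.

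Lipocalin-2, which binds bacterial siderophores and is made by gut epithelium as well as by neutrophils, did not separate the labels. Its signal at day 7 was 8.56, 8.66, 9.61 and 9.56 on replicates 2, 2.1, 4 and 6 of the GF Card9-/- label, and 8.28, 8.93, 10.21 and 8.45 on those labelled GF WT replicates 1, 4, 5 and 6. The highest and the lowest array both carry the WT label. The difference was 0.13 ± 0.47 (95% interval -0.98 to 1.24, limma adjusted p = 0.988), and it was -0.08 with the slide as a fixed block, 0.54 without the array labelled GF WT replicate 5, and 0.89 with the replicate number as a block.

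Csf3r, the receptor through which granulocyte colony-stimulating factor drives neutrophil production, was read by a single, very bright probe. It lay between 15.16 and 15.54 on the arrays labelled GF Card9-/- and between 15.11 and 15.35 on those labelled GF WT at day 7, and the difference was 0.12 ± 0.12 (adjusted p = 0.913). Its median processed signal of 38394 units placed the probe (A_55_P2070352, chr4:125721478-125721537) at rank 896 of 55681 probes at day 7, and its 75458 units at rank 490 of 56605 at day 0, against medians of 22.9 and 60.8 units over all probes. The last 30 of its 60 bases recur, letter for letter, in another probe (A_55_P2076190).
Shared stretch, bases 31 to 60 of the Csf3r probe: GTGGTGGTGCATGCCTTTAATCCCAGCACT
The capitals are the shared letters, which read as the start of a B1 element, a short repeat spread through mouse genes and their transcripts. The second probe had a median signal of 60227 units at day 7 and 110988 at day 0, while the median over all probes that share a run of 16 bases or more was 4577 units and 795 units. Runs of at least 16 bases of the Csf3r probe occurred in 6 other probes at day 7 and 7 at day 0, while the probes of S100a8, S100a9, Lcn2, Mpo, Elane, Ltf and Mmp8 shared no such run with another probe, the Ngp probe shared 17 bases with 1 probe, and the Camp probe shared 40 bases with the other Camp probe of the day 7 design. On either strand, a run of 20 bases of the Csf3r probe occurred in 1 of 32851 mouse promoters (0.00304%). What part of the Csf3r signal comes from the repeat was not tested, so its level is given for the probe and not for the gene.

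The primary granule genes did not separate the labels. Mpo read between 2.40 and 4.33 on the arrays labelled GF Card9-/- and between 2.37 and 3.70 on those labelled GF WT at day 7, all of them not well above background, and its difference of 0.42 ± 0.46 (adjusted p = 0.914) turned to -0.53 with the slide as a fixed block. Elane, neutrophil elastase, had clear signal on every array, from 8.73 to 9.57 and from 7.94 to 9.13, with a difference of 0.35 ± 0.30 (adjusted p = 0.913). Among the arrays labelled GF WT, replicate 5 stood alone at 7.94 and the other 3 lay between 8.96 and 9.13, and without it the difference was 0.08. Elane and Mpo are products of the same granule, and on these arrays one was well above background everywhere and the other on no day 7 array.

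Of the specific granule genes, Camp, the precursor of the antimicrobial peptide CRAMP, lay between 6.41 and 7.06 on the arrays labelled GF Card9-/- and between 6.05 and 6.70 on those labelled GF WT. Its difference was 0.32 ± 0.20 (adjusted p = 0.913), a dimmer Camp probe gave 0.16 ± 0.31, and with the slide as a fixed block it was 0.03, from 0.29 and -0.24 within the 2 slides. Ngp lay between 2.52 and 3.16 and between 2.53 and 2.98 at background level, with a difference of 0.05 ± 0.17. Ltf and Mmp8 were not tested at day 7, and their values lay between 2.43 and 3.58 and between 2.50 and 4.30 over all 8 arrays.

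Taken as a list, 0 of the 8 members tested at day 7 were called at an adjusted p under 0.05, as was 0% of all 44643 probes. An unadjusted p under 0.05 was reached by 2 of 8 members against 3.38% of all probes (2.02% higher and 1.36% lower under the GF Card9-/- label), and 2 of 8 did not overlap between the labels against 2.13% of all probes (1.08% higher and 1.05% lower), both times S100a8 and S100a9, with the higher values under the GF Card9-/- label. The differences of all 8 lay above 0, as did those of 50.4% of all probes, and their median was 0.33 against 0.0013 for all probes. The detection filter keeps a probe detected under either label, so a member dim under 1 label can enter these counts. S100a8 and S100a9 were well above background on 1 and 4 of 4 arrays labelled GF Card9-/-, against 0 and 1 of 4 labelled GF WT. The members were named with earlier results of these data known, so these counts describe them and are no independent evidence of a direction.

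**Figure D3:**
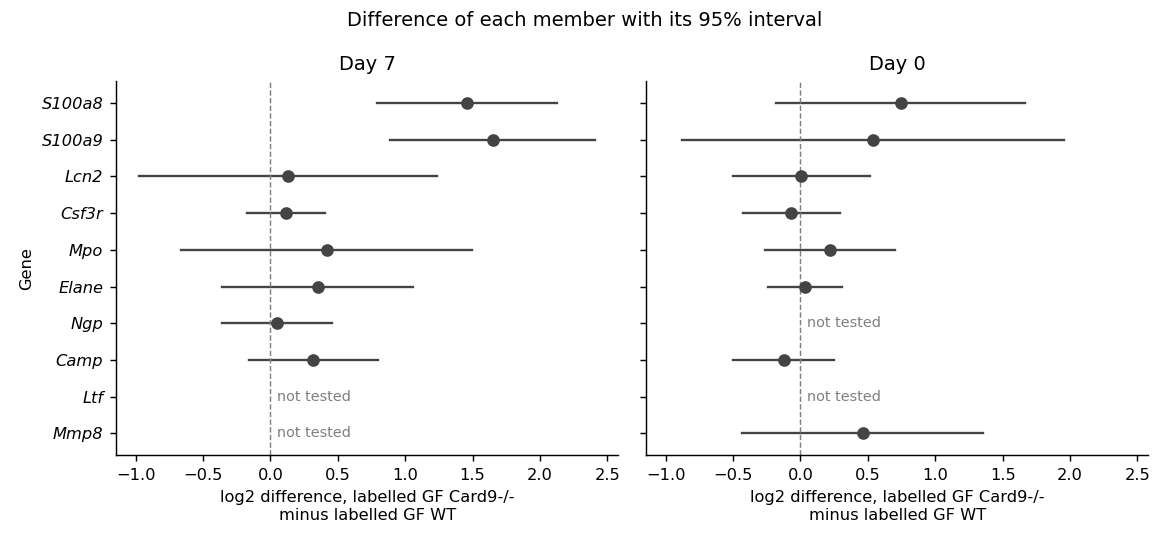
Log2 difference (horizontal axis, arrays labelled GF Card9-/- minus GF WT) of each member at day 7 (n = 4 and 4) and day 0 (n = 7 and 6), with points for the estimates and lines for the 95% intervals from limma. Only the day 7 intervals of S100a8 (0.79 to 2.12) and S100a9 (0.89 to 2.41) leave out 0, before any adjustment for the number of probes tested.

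Before DSS, at day 0, no member separated the labels. S100a8 had a lowest, median and highest value of 2.21, 3.89 and 4.44 in the 7 arrays labelled GF Card9-/- and of 2.21, 2.43 and 3.64 in the 6 labelled GF WT. The labels overlap, with GF WT replicate 4 at 3.64 above 3 of the arrays labelled GF Card9-/-, and only 1 array, labelled GF Card9-/- replicate 1, was well above background. The difference was 0.74 ± 0.42 (95% interval -0.18 to 1.66, adjusted p = 0.912), and it was 0.15 with dim values raised to the floor. S100a9 spanned 2.42, 4.44 and 6.32 (lowest, median, highest) in the arrays labelled GF Card9-/-, 3 of 7 well above background, and 2.38, 3.65 and 4.80 in those labelled GF WT, 2 of 6 well above background. Its difference was 0.54 ± 0.65 (95% interval -0.88 to 1.96, adjusted p = 0.918). Within each of the 4 day 0 slides the mean difference lay above 0 for both genes, from 0.30 to 1.72 for S100a8 and from 0.36 to 1.07 for S100a9, with 1 or 2 arrays of each label per slide. With normexp the day 0 differences were 0.14 and 0.20, in the authors' values 0.23 and 0.26, and leaving out single arrays moved S100a9 between 0.19, without the array labelled GF Card9-/- replicate 1, and 0.84.

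**Figure D4:**
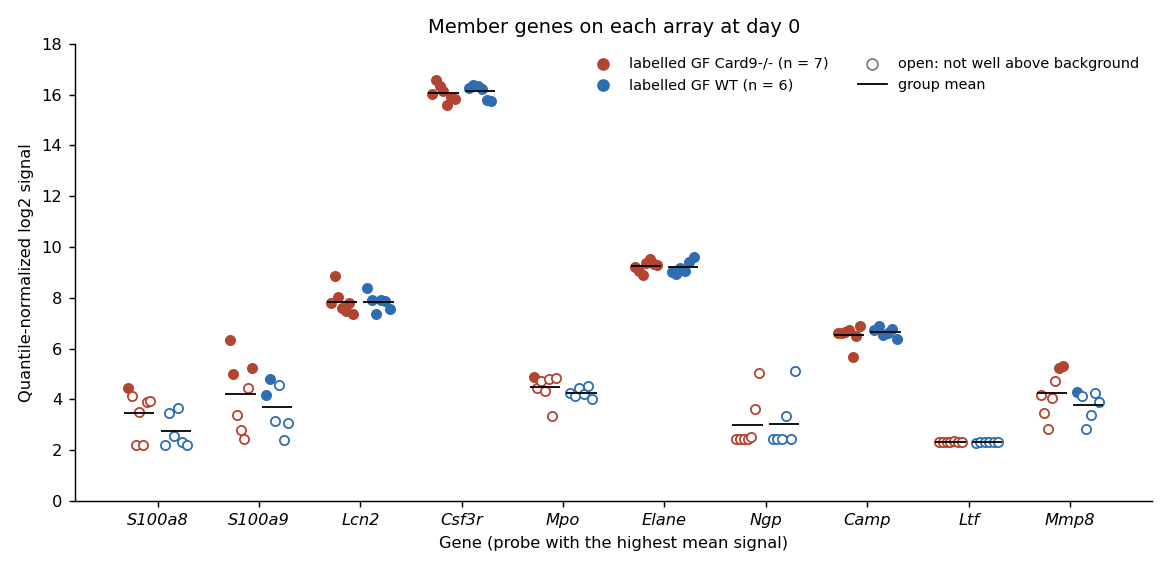
Quantile-normalized log2 signal (vertical axis) of the 10 member genes on each day 0 array, with arrays labelled GF Card9-/- in red (n = 7) and GF WT in blue (n = 6), bars at the group means and open circles where the probe was not well above background. All members overlap between the labels. S100a9 spreads from 2.38 to 6.32 over the arrays while Lcn2, Csf3r, Elane and Camp stay filled throughout.

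The other members at day 0 were close between the labels where they were well measured. Lcn2 ranged from 7.38 to 8.86 and from 7.35 to 8.38, with a difference of 0.01 ± 0.23 (95% interval -0.50 to 0.51), and its second, dimmer probe gave -0.08 ± 0.39. Csf3r differed by -0.07 ± 0.17, Elane by 0.03 ± 0.13 and Camp by -0.13 ± 0.17. The intervals of these 4 genes reached at most 0.51 in size, while those of S100a8 and S100a9 reached 1.66 and 1.96. Camp was lowest on the array labelled GF Card9-/- replicate 5, at 5.66 against 6.48 to 6.90 on the others of that label. Mpo differed by 0.22 ± 0.22, with values at or near background. Mmp8, with the probe of the day 0 design, spanned 2.84 to 5.30 and 2.81 to 4.30 and differed by 0.46 ± 0.41 (95% interval -0.43 to 1.36, adjusted p = 0.912). Ngp stood at 5.04 on the array labelled GF Card9-/- replicate 7 and at 5.13 on GF WT replicate 6, against a median of 2.45 in both groups, without being well above background on either.

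At day 0, 0 of 8 members tested were called, against 0.0253% of 47410 probes (0.0148% higher and 0.0105% lower under the GF Card9-/- label). None of the 8 reached an unadjusted p under 0.05 (5.84% of all probes did, 3.89% higher and 1.95% lower) and none separated the labels (0.458% did, 0.316% higher and 0.141% lower). Of the 8 differences, 6 lay above 0 (57% over all probes), with a median of 0.13 against 0.015.

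Over the 13 day 0 arrays S100a8 and S100a9 had a Pearson's r of 0.80 and a Spearman's rho of 0.74, given as a description with no test, since this pair was chosen after its values were seen and S100a8 was well above background on 1 of 13 arrays. No correlation of S100a8 with another member was computed. Without the 2 arrays farthest from the S100a8 median r was 0.79, within the 7 arrays labelled GF Card9-/- it was 0.83 and within the 6 labelled GF WT 0.74, and within the 2 scan sessions 0.82 (6 arrays) and 0.84 (7 arrays). Most of these values are at or near background, and both probes share each array's normalization. At day 7 the labels separate both genes, and no pooled coefficient is given.

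Whether the label difference differed between the days was tested for the 6 members whose brightest probe is on both designs and passed the detection filter at both days, in 1 fit of all 21 arrays, since a constant of the array design cancels there. None of the 6 was called, as was 0% of 23633 shared probes, and none reached an unadjusted p under 0.05 (7.14% of those probes did). The day 7 difference exceeded the day 0 difference by 0.72 ± 0.60 for S100a8 (95% interval -0.54 to 1.97, adjusted p = 0.845) and by 1.11 ± 0.89 for S100a9 (95% interval -0.76 to 2.98, adjusted p = 0.830). With normexp these were 0.15 and 0.51, in the authors' values 0.095 and 0.57, and with dim values raised to the floor -0.0085 and 1.01. The values for Camp, Elane, Csf3r and Lcn2 were 0.44, 0.32, 0.19 and 0.13. A larger difference under DSS was thus not detectable with these arrays.

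Other genes of neutrophils were read from 3 lists of 72 genes in all, 60 tested at day 7 and 59 at day 0, and 0 of them were called at either day. Among 25 other granule proteins tested at day 7, 16 differences lay above 0 and the median was 0.20. The lowest unadjusted p values were those of Stfa1, a stefin (cysteine protease inhibitor) of neutrophils, at 1.25, and of Cd177, a neutrophil surface glycoprotein, at -0.94, in opposite directions. Among 19 genes of neutrophil surface and signalling the median was 0.17, and the lowest p values were those of Retnlg, a resistin-like protein of neutrophils, at 1.66, and of Padi4, the enzyme that citrullinates histones when neutrophils release their chromatin, at 0.79. Among 16 genes of neutrophil production and recruitment 11 differences lay above 0 and the median was 0.13. Here Ccl3, a chemokine that attracts leukocytes, differed by 2.09 without overlap between the labels, and Cxcl1, a chemokine that draws neutrophils, by 1.45. In the same list Il17a, a cytokine that promotes neutrophil recruitment, stood at -0.66 and was lower in every array labelled GF Card9-/-, though well above background on none, and it is named after its values were seen. The adjusted p in limma was 0.913 for Stfa1, Cd177, Retnlg, Padi4, Ccl3 and Cxcl1, the 2 genes with the lowest p in each list. Ccl3 was well above background on 2 of 4 arrays labelled GF Card9-/- and 0 of 4 labelled GF WT, Retnlg on 2 and 0, Stfa1 on 1 and 0, Cxcl1 on 1 and 0 and Padi4 on none, while Cd177 was well above background on all 8. For Ccl3, Retnlg, Stfa1, Cxcl1 and Padi4 no array labelled GF WT was well above background, so their differences are no measured sizes. The same holds for Il17a.

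At day 0 the medians of the same 3 lists were -0.02, -0.05 and -0.10, and 25 of 59 differences lay above 0. The lowest p values belonged to Hdc, histidine decarboxylase, at 0.41, and Cyba, a subunit of the NADPH oxidase, at -0.18. In the second list they belonged to Mrgpra2b at 0.50 and Ltb4r1, a leukotriene B4 receptor, at -0.27. In the third they belonged to Cebpb, a C/EBP transcription factor, at 0.31, and Cxcl12, the chemokine that holds neutrophils in the bone marrow, at -0.84. The adjusted p was 0.443 for Cebpb and larger for the other 5.

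The receptors for calprotectin and lipocalin-2 had 7 tested genes at day 7 with a median of 0.06 and 8 at day 0 with a median of -0.14. The scavenger receptor Cd36 (0.60) and the endocytic receptor Lrp2 (1.12) had the lowest p at day 7, and Ager, the receptor for advanced glycation end products, which binds S100 proteins, (0.10) and Slc22a17, the lipocalin-2 receptor (-0.27), at day 0. The other S100 genes lie partly in the same cluster. Their median was -0.03 over 14 genes at day 7 and 0.10 over 13 at day 0, and the lowest p values were those of S100a3 (1.20) and S100a16 (-0.34, lower in every array labelled GF Card9-/-) at day 7 and of S100a14 (0.27) and S100a16 (0.13) at day 0. Of 15 epithelial defense genes at day 7, 14 differences lay above 0 with a median of 0.39. Fut2, a fucosyltransferase of the epithelium, was the exception at -0.37 without overlap, and the goblet cell product Retnlb stood at 3.02. At day 0 their median was 0.04, with Cd274 at 0.30 and Retnlb at 1.35. No gene of these lists, or of those that follow, was called at either day.

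**Figure D5:**
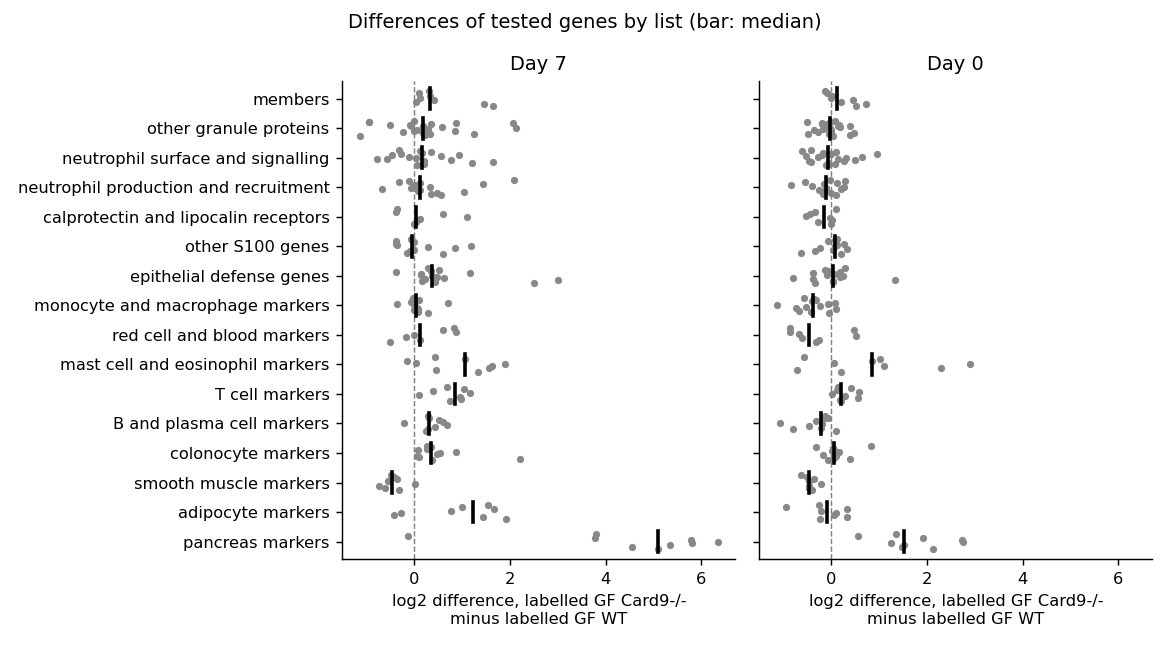
Log2 difference (horizontal axis, arrays labelled GF Card9-/- minus GF WT) of every tested gene in each list at day 7 and day 0 (grey points), with a black bar at the list's median. The member median lies at 0.33 and 0.13, the mast cell median near 1 at both days, and the pancreas list reaches a median of 5.09 at day 7.

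The values of markers of other cells are given beside those of the calprotectin genes, and their part in the result was not tested. Whole colon RNA also cannot tell fewer cells of a type from less RNA per cell. Mast cell and eosinophil markers had a median of 1.07 over 9 tested genes at day 7, with Mcpt2 (1.64) and Mcpt4 (1.58) higher in every array labelled GF Card9-/-, and 0.86 over 9 at day 0, with Mcpt1 (2.91, limma adjusted p = 0.120) and Mcpt4 (2.30, limma adjusted p = 0.272) likewise. Of all probes, 1.08% at day 7 and 0.316% at day 0 were higher in every such array, against 2 of these 9 markers at each day. Their summed linear signal ranged from 3062 to 3820 under the GF Card9-/- label and from 2303 to 3367 under the GF WT label at day 7, and 3 of 10 were well above background on no array. T cell markers had a median of 0.86 (8 of 8 above 0, summed signal 2925 to 5289 against 2715 to 2920) at day 7, where Cd3g (1.18) and Lck (0.75) had the lowest p, and 0.21 at day 0, where Cd3g (0.58) and Cd8a (0.56) did. Monocyte and macrophage markers, the other main source of calprotectin in inflamed gut, had a median of 0.05 over 13 genes at day 7, with Ccr2 at 0.71 and Cd14 at -0.36, and of -0.36 over 14 at day 0, with Cd163 at -1.12 and Mrc1 at -0.67. Their summed signal at day 7 was 55625 to 84570 against 57381 to 63314. Red cell and platelet markers, a sign of blood in the tissue, had medians of 0.13 and -0.45, with Hbb-b1 at 0.89 and Alas2 at 0.84 at day 7 and Hba-a1 at -0.85 and Alas2 at -0.84 at day 0.

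Pancreas genes, which mark RNA of a neighbouring organ, spread widely between arrays. Higher in every array labelled GF Card9-/- than in any labelled GF WT at day 7 were 1.08% of all probes and 4 of the 9 pancreas genes tested. Their summed signal ranged from 4342 to 535820 under the GF Card9-/- label and from 4284 to 22258 under the GF WT label at day 7, with Cpb1 at 5.80 and Ctrb1 at 5.34, and from 37802 to 1822000 and from 19098 to 57532 at day 0, with Cela1 at 0.57 and Cela3b at 2.74. Adipocyte markers had medians of 1.23 and -0.07, with Retn at 1.93 and Lep at -0.27 at day 7 and Lep at 0.11 and Pck1 at 0.06 at day 0. Smooth muscle markers had medians of -0.45 at both days, with Myh11 at -0.72 and Smtn at -0.60 at day 7 and Acta2 at -0.62 and Actg2 at -0.50 at day 0. Colonocyte markers, which identify the tissue, were well above background on every array for 11 of 11 genes at day 7 and 12 of 12 at day 0, with medians of 0.37 and 0.07, Muc2 at 0.49 and Vil1 at 0.39 at day 7 and Slc9a3 at 0.39 and Cdx1 at 0.08 at day 0. B and plasma cell markers had medians of 0.32 and -0.19, with Xbp1 at 0.25 and Cr2 at 0.61 at day 7 and Xbp1 at 0.12 and Pax5 at -0.21 at day 0.

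The profiles most like the mean of S100a8 and S100a9 were sought among genes well above background on every array, as a description with no test. Over the 8 day 7 arrays and 12855 genes these were Nlrc5, the activator of MHC class I genes (Pearson's r = 0.97), Rnf213, a large interferon-inducible ubiquitin ligase (0.93), Gfpt1, the first enzyme of the hexosamine pathway (0.93), 2610028H24Rik (0.93) and Cybrd1, the duodenal-type ferric reductase (0.92), where the 99th percentile over all these genes was 0.75. Over the 13 day 0 arrays and 15246 genes these included Pcnp (0.86), Hmox1, heme oxygenase-1 (0.77), Kifbp (0.76) and the matrix proteoglycan gene Fmod (0.73), where the 99th percentile was 0.56. No gene is named at both days. The arrays of a label share their label difference, and at day 7 all 5 genes had higher means under the GF Card9-/- label, 7.84 against 6.62 for Nlrc5.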

How the data were processed

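Colon RNA of 21 samples was measured on single-color Agilent arrays with probes of 60 bases, of one design at day 7 and another at day 0. The deposited scanner files hold each spot's intensity from Feature Extraction 10.7.3.1 (named in the submitters' processing notes), including the background-subtracted processed signal, the detection p-value and the background flag, as the authors exported them. The authors also deposited a file of log2 values per array, which ranked day 7 probes as the median signal without background subtraction does and was used as an alternative.

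Spots of a probe were averaged, the processed signal was taken to log2 and quantile normalized within each day, and probes detected (p under 0.05) on 60% or more of the arrays of either label were tested with limma 3.58.1 (lmFit and eBayes, R 4.3.3, statmod 1.5.0, data.table version 1.17.8) with Benjamini-Hochberg adjustment and a threshold of 0.05. The days were fitted separately, and together over shared probes for the difference between days. The fit was tested on simulated data. A gene was named by its brightest probe. All 10 members are described, with the 2 genes of lowest p in each of 15 further lists (201 genes) and the 5 genes most like the mean of S100a8 and S100a9 at each day, of which 1 is not reported here. Members and lists were chosen with earlier results of these data known. The floor of an array is its dimmest probe well above background. Alternatives were scaling on the 75th percentile, normexp (offset 50), the authors' table, other filters, the floor, slide, scan session and replicate blocks, other probe summaries and leaving out arrays. Array signals give no counts, so precision is limited by how many arrays there are.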

Additional observations from a re-analysis of the deposited data

Results flagged for a closer look

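In each group of 4, 6 or 7 arrays, the gap between the highest or lowest array and its neighbour was divided by the range of the group. For normally distributed values this rule marks about 1 in 20 groups by chance, and values at background need not be so distributed. Of 44 groups (10 members and Card9), 10 were marked. Card9 stood at 7.85 on the day 7 array labelled GF WT replicate 1, with the next at 2.41, and at 8.57 on GF Card9-/- replicate 2.1. Elane was lowest on the day 7 array labelled GF WT replicate 5, at 7.94. Ltf, never well above background, was highest at 3.58 on the day 7 array labelled GF Card9-/- replicate 6, and lowest at 2.44 on GF WT replicate 6 at day 7 and at 2.28 on GF WT replicate 1 at day 0. At day 0 the array labelled GF Card9-/- replicate 5 had the lowest Camp value, 5.66, replicate 2 of that label the highest Lcn2 value, 8.86, and replicate 6 the lowest Mpo value, 3.35. Ngp stood at 5.13 on the day 0 array labelled GF WT replicate 6.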

How the results depend on the processing

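No member was called under any of the 18 alternatives at day 7, 24 at day 0 and 26 for the difference between days. Over all probes, day 7 gave 0 calls, 0 to 1 when each array was left out (1 without the array labelled GF WT replicate 1) and 1 without the 3 arrays in doubt, a choice made after seeing the data. Day 0 gave 12 calls, 27 with normexp, 22 in the authors' table, 22 over probes well above background only and 7 with the replicate block, and 8 to 16 when each array was left out. The difference between days gave 0, and 0 to 2 when each array was left out (2 without GF WT day 7 replicate 5 or 6). Same-numbered samples correlated between -0.022 and 0.37 in their deviations, not above 0.1 for every pair, and numbers 1 and 5 at day 0 and 4 at day 7 matched their own number best while the others did not, so the samples were taken to share only a number. The replicate block at day 7, which rests on the 2 shared numbers, gave 1.88 for S100a8, 2.08 for S100a9, 0.89 for Lcn2, 0.79 for Mpo, 0.33 for Ngp and -0.15 for Elane. S100a8 and S100a9 stayed above 0 in each day's settings that held them, at day 7 between 1.28 and 1.70 and between 1.37 and 1.93 when each array was left out. With probes well above background only, S100a8 dropped out at day 7 and both genes dropped out at day 0.

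The sign turned in the following cases, and the cause was not tested. At day 7 Ngp was -0.30 with the 75th percentile, -0.035 with normexp and -0.064 in the authors' table, Mpo was -0.0020 at the floor and -0.53 with the slide as a fixed block, and Lcn2 was -0.077 with that block and -0.11 without the 3 arrays. At day 0 Lcn2 was -0.059 with the 75th percentile, -0.010 in the authors' table and -0.037 averaged over its probes, Elane was -0.011 with the slide block, and Camp was 0.0043 without the arrays of 1 slide. The S100a8 difference between days was -0.0085 at the floor. When each array was left out, Lcn2 ran from -0.10 to 0.54 and Ngp from -0.088 to 0.14 at day 7, Mpo from 0.13 to 0.77 and Elane from 0.078 to 0.48, and Lcn2 from -0.16 to 0.12, Csf3r from -0.16 to 0.011, Elane from -0.025 to 0.11 and Camp from -0.19 to 0.018 at day 0. The Lcn2 difference between days ran from -0.10 to 0.54, and that of Elane was 0.047 without GF WT day 7 replicate 5. At day 0 S100a8 at the floor (0.15) lay under Mpo (0.21) and Mmp8 (0.20). Signal near background limits S100a8, S100a9, Mpo, Ngp, Ltf and Mmp8.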
